A study of Arabidopsis thaliana with 12 samples.

Results

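The comparison described here is between roots of the afb3-1 mutant and roots of its wild type, the Wassilewskija accession (Ws), after nitrate. It takes 6 of the 12 arrays of the series: 3 of afb3-1 and 3 of Ws, all from seedlings given 5 mM KNO3 for 2 h. The other 6 arrays are the same genotypes given 5 mM KCl for 2 h and serve only as the setting beside which the nitrate values are placed. Every array with the genotype and treatment named in its title was taken. Arrays of both genotypes that carry the same replicate number deviated together and were treated as pairs, which gives 3 pairs per treatment.

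All 4 groups were raised alike. Seedlings grew hydroponically for 14 days. Their nitrogen came from 0.5 mM ammonium succinate, sucrose was at 3 mM, and light lasted 16 h with 8 h of dark at 22 °C. On day 15, at the start of the light period, they received the salt, so both genotypes met nitrate after growth on ammonium. Whole roots were cut, and RNA was measured on Affymetrix arrays that report 22746 probe sets as log2 signals. The mutant group is a single allele, afb3-1, and a whole root mixes all of its cell types.

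AFB3 is an F-box protein of the family that perceives auxin. Bound to auxin, such receptors mark Aux/IAA repressors for destruction, which frees the transcription factors that those repressors hold. In Arabidopsis roots AFB3 is known as a nitrate-induced member of the family, linked to changes in primary and lateral root growth after nitrate.

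AFB3 itself is not analysed here, so the level of the mutated gene does not check the genotype labels. TIR1, AFB1, AFB2, AFB4, AFB5, NAC4, OBP4, NIA1, NIR1 and NRT2.1 are likewise not analysed here. The nitrate treatment could be followed at 6 other loci taken as its indicators. After nitrate they differed little between the genotypes, from −0.09 for AT1G25550 to 0.15 for AT5G10210 on the log2 scale. AT3G25790, AT1G68670, AT5G41670 and AT1G64190 differed by 0.04, 0.06, 0.03 and 0.01.

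After nitrate no probe set differed between the genotypes past the threshold. The limma fit called 0 of 22746 probe sets (0%) at an adjusted p of 0.05, and the smallest adjusted p was 0.232, shared by 22 probe sets. At an unadjusted p under 0.05 there were 1755 (7.72%), of which 946 were higher in afb3-1 (4.16%) and 809 lower (3.56%). Values below are therefore given as measured differences, afb3-1 minus Ws, and no gene is said to have changed. Other fits moved the whole-array count at an unadjusted p under 0.05 down or up. It was 538 in a fit that ignores the pairs and 930, 1476 and 1534 without pair 1, 2 or 3. In a fit of the 6 KNO3 arrays alone it was 2147, and with array weights 2353. Counts for gene lists under these fits are to be read beside those.

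The size of the differences was uneven between the directions. In afb3-1, 87 probe sets (0.382%) were at least 1 log2 unit (2-fold) higher than in Ws and 5 (0.0220%) at least 1 unit lower. Of the 87, 36 have a single gene in the annotation and 10 of these lie on the plastid genome, which holds 69 of the 13350 genes measured. Of the 87, 83 were higher in all 3 pairs, against 16.8% of all probe sets. A mean difference of that size itself favours 1 sign in all pairs. In KCl 0 probe sets (0%) were 1 unit higher and 3 (0.0132%) were 1 unit lower. The typical difference was small, with a median of 0.0092 over all probe sets and a median 95% interval of 0.269 to either side.

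Among genes higher in afb3-1 the smallest p belonged to AT2G35820. Its signals in replicates 1 to 3 were 3.22, 3.31 and 3.27 in afb3-1 and 1.97, 1.64 and 2.46 in Ws. The afb3-1 arrays lay close together and all above the Ws arrays. The difference was 1.24 ± 0.16 (SE, n = 3 pairs), or 2.37-fold, with a limma adjusted p of 0.232. Each SE given here and below comes from the limma fit. It pools the spread within pairs over both treatments and draws it toward that of other genes. It is therefore not the spread of the 3 KNO3 pairs alone, and can be smaller where these differ widely. In KCl the same gene differed by 0.12.

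PPDK and ICL were among the 10 genes with the smallest p on the higher side. PPDK, which encodes pyruvate orthophosphate dikinase, read 3.41, 3.22 and 3.68 in afb3-1 against 2.83, 2.23 and 2.97 in Ws, and the groups did not overlap. ICL, isocitrate lyase of the glyoxylate cycle, read 7.80, 8.77 and 8.78 against 6.89, 7.91 and 8.06. Every afb3-1 array of ICL was above its partner, although replicate 1 of the mutant lay below replicates 2 and 3 of Ws. The differences were 0.76 ± 0.13 for PPDK and 0.83 ± 0.15 for ICL (SE, n = 3 pairs), both at an adjusted p of 0.232.

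SWEET11 encodes a sucrose exporter. Its signal was 4.45, 4.14 and 4.97 in afb3-1 and 3.16, 2.21 and 4.42 in Ws. Replicate 3 was the highest in each genotype, so the groups overlapped while each pair ran the same way, by 1.29, 1.94 and 0.56. Of 14 SWEET genes measured SWEET11 was the 1 with an unadjusted p under 0.05, against 7.72% of all probe sets. That share leaves little to read from 14 genes, and 8 of them were among the dimmest probe sets (mean signal under 2.32). SWEET16 differed by −0.27. In the list of 18 genes for the glyoxylate and citrate cycles and lipid mobilisation, 8 were higher by point estimate, the median was −0.004, and 2 were higher at an unadjusted p under 0.05 (4.16% of all probe sets) and 1 lower (3.56%). The lower gene was SDH1-2, a flavoprotein subunit of succinate dehydrogenase, at −0.50 ± 0.15 (SE, n = 3 pairs).

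**Figure D1:**
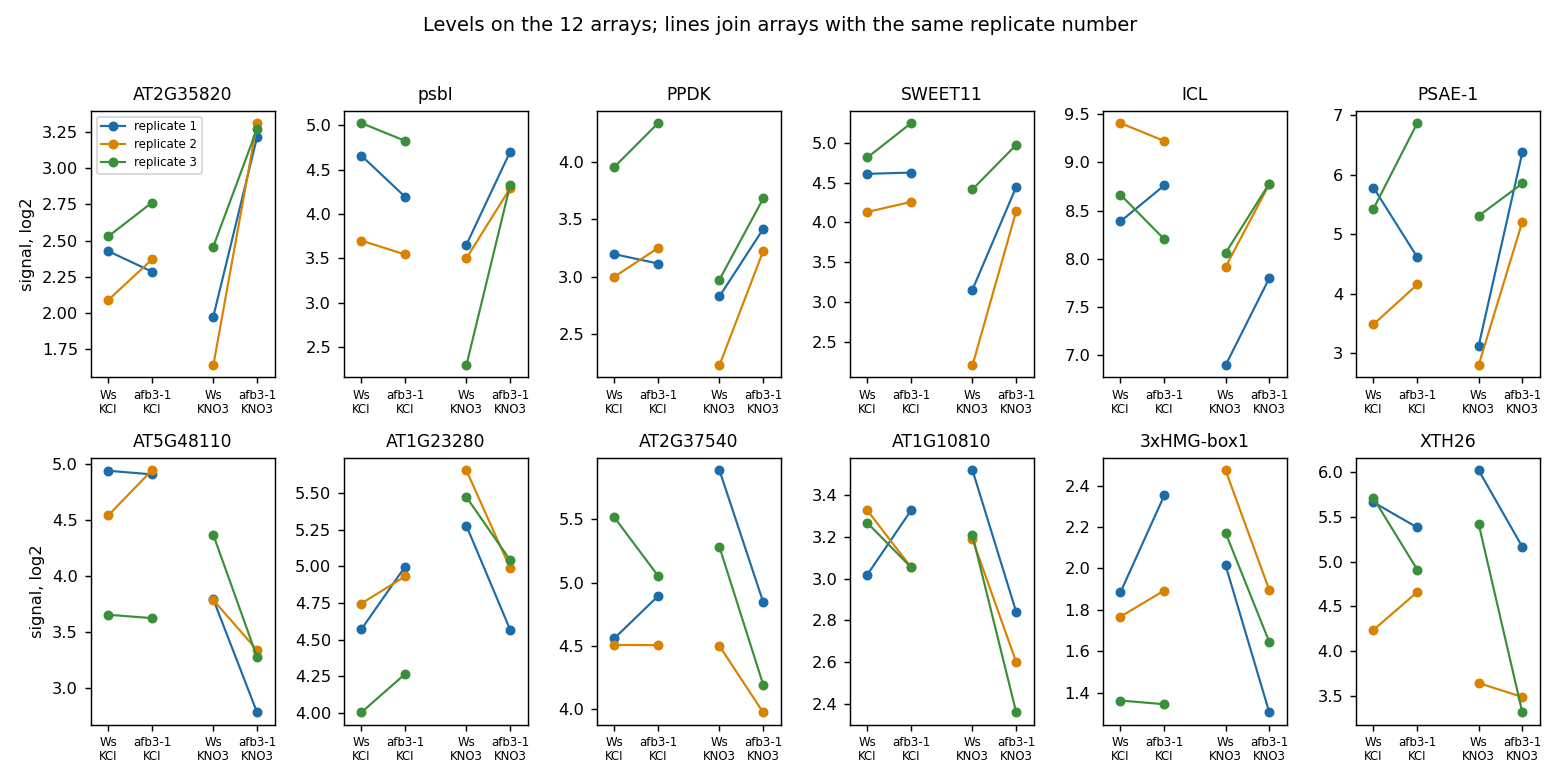
Log2 signal (vertical axes, each panel with its own range) of 12 genes on the 12 arrays, by genotype and treatment; lines join arrays with the same replicate number. The 6 genes of the upper row are higher in afb3-1 after nitrate in all 3 pairs and the 6 of the lower row are lower in all 3, while the KCl lines run in mixed directions.

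The other genes with the smallest p on the higher side were AT4G16410 at 0.71, AT1G52700 at 0.69, AT5G51110 at 0.63 and AT5G01740 at 0.60. AT5G01740 had the narrowest groups, 6.97, 6.89 and 6.92 in afb3-1 against 6.42, 6.44 and 6.13 in Ws. In all 4 genes the groups did not overlap. Over all probe sets 5.41% had the afb3-1 arrays wholly above the Ws arrays and 3.27% wholly below.

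On the lower side AT5G48110 had the smallest p. It read 2.78, 3.34 and 3.28 in afb3-1 and 3.79, 3.78 and 4.37 in Ws. All mutant arrays lay below all Ws arrays. The difference was −0.85 ± 0.15 (SE, n = 3 pairs; adjusted p 0.232), against 0.11 in KCl. AT1G23280 differed by −0.60 after nitrate and by 0.29 in KCl, and its KNO3 minus KCl difference of −0.90 was among the 5 with the smallest p.

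AT2G37540, AT1G69526, AT1G10810, AT4G27400, AT5G55050, AT4G33810 and AT4G24790 completed the lower set, between −0.88 and −0.49. Among genes with a mean signal over 2.32, an unadjusted p under 0.05 and 1 sign in all pairs, the largest lower values were AT1G34510 at −1.12, then AT1G10875, then XTH26 at −1.04. The pair differences of AT1G10875 were −1.90, −0.76 and −0.63. XTH26 belongs to the enzymes that cut and rejoin xyloglucan in the cell wall. It read 5.16, 3.49 and 3.31 in afb3-1 and 6.02, 3.64 and 5.42 in Ws, so its difference was largest in pair 3 and small in pair 2. AT1G52060 and AT1G52050 were at −0.91 and −0.85, and both read highest in replicate 1 of each genotype.

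Genes of the photosynthetic apparatus were among the largest differences on the higher side. Roots hold non-green plastids with their own genome, and the plastid photosystems join proteins encoded there with proteins encoded in the nucleus. The nuclear group was described with 13 genes for photosystem subunits, light-harvesting proteins, the plastid ATP synthase gamma subunit and Rubisco activase. Of these, 12 were higher in afb3-1 by point estimate, where 52.8% of all probe sets were, and 10 were higher at an unadjusted p under 0.05, against 4.16%. Their median difference was 1.01, and 0 of 13 passed the adjusted threshold in limma. At an unadjusted p under 0.05, 7 were higher in a fit that ignores the pairs, and 7, 8 and 9 without pair 1, 2 or 3. The list was drawn up by symbol after values had been seen and takes in the 8 genes of a shorter photosynthesis list.

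PSAE-1, a photosystem I subunit on the stromal side, had the largest difference among the 13350 genes with a single-gene probe set. Its signals were 6.38, 5.22 and 5.86 in afb3-1 and 3.12, 2.80 and 5.31 in Ws. Replicate 3 of Ws stood far above the other Ws arrays and just above replicate 2 of the mutant. The difference was 2.07 ± 0.50 (SE, n = 3 pairs), or 4.21-fold, with an adjusted p of 0.32. PSAN, a photosystem I subunit on the lumen side, read 5.75, 5.03 and 5.22 against 3.43, 3.36 and 4.49, without overlap.

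PSB27, PSBY and PSBW, which belong to photosystem II, differed by 1.27, 1.23 and 1.19. RCA, Rubisco activase, read 6.78, 6.62 and 6.81 in afb3-1 and 5.30, 5.38 and 6.23 in Ws, without overlap. LHCB4.1 and LHCB4.2, which encode the CP29 antenna protein, were at 1.01 and 0.70, while their relative LHCB4.3 was at 0.21. ATPC1 was at 1.00. Its paralogue ATPC2 was the 1 member below 0, at −0.09. AT2G26500 and AT2G10940, not in the list, were at 1.95 and 1.59 with the same array pattern, replicate 3 of Ws being the highest Ws array.

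Enzymes of chlorophyll synthesis and plastid electron flow showed smaller differences. Of 17 genes in this list 14 were higher by point estimate, against 52.8% of all probe sets, and 6 at an unadjusted p under 0.05, against 4.16% (3 in a fit that ignores the pairs, 2 without pair 1), and the median was 0.15. SBPASE of the Calvin cycle was at 0.85, TROL, which anchors ferredoxin-NADP reductase at the thylakoid, at 0.66, and CaS, a thylakoid calcium-sensing protein, at 0.61. PORB, a protochlorophyllide oxidoreductase, was at 0.60 and NdhS at 0.58. CHLM, an enzyme of the magnesium branch, was at 0.36 with an unadjusted p of 0.0917.

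Of 19 listed shoot or leaf markers 2 were measured by name, LHCB4.1 and RCA, both also members of the nuclear list. Their summed log2 signal was 13.1, 12.4 and 12.7 on the afb3-1 KNO3 arrays and 10.1, 10.1 and 11.7 on the Ws KNO3 arrays. On the KCl arrays it was 11.4, 11.1 and 14.4 in afb3-1 and 12.1, 10.4 and 11.8 in Ws. Being members of the list, these markers are no separate measure of it. Their part in the result was not tested, and fewer cells of a type cannot be told apart from less RNA per cell in whole roots.

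The plastid genome itself was represented by 69 genes. By point estimate 63 were higher in afb3-1 after nitrate, against 52.8% of all probe sets, and their median was 0.34. At an unadjusted p under 0.05, 32 were higher, against 4.16%, and 1 lower, against 3.56%. 28 were higher in all 3 pairs, a pattern found in 16.8% of all probe sets. The photosystem I genes had a median of 1.11 over 5 genes and the ATP synthase genes 0.69 over 6. The median was 0.39 over 15 photosystem II genes, all higher by point estimate, 0.35 over 6 genes of the cytochrome b6f complex and 0.26 over 10 NDH genes, likewise all higher. It was 0.20 over 15 ribosomal protein genes, with 11 higher, 0.18 over 4 RNA polymerase genes and 0.73 over 8 other genes. Leaving out 1 pair moved several of these medians by over 1.5 times. Photosystem I was at 0.71 without pair 1, and photosystem II at 0.26 without pair 1 and 0.65 without pair 2. ATP synthase was at 0.39 without pair 3, and the other genes at 0.23 without pair 3 and 1.21 without pair 2. Ribosomal protein genes were at 0.11 without pair 3 and 0.35 without pair 2, and cytochrome b6f at 0.55 without pair 2.

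psaB, which encodes a core protein of the photosystem I reaction centre, was the largest. It read 6.91, 6.53 and 5.88 in afb3-1 and 4.99, 5.51 and 3.62 in Ws, a difference of 1.74 ± 0.37 (SE, n = 3 pairs; adjusted p 0.277). All mutant arrays were above all Ws arrays. In KCl its difference was −0.0022.

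psbI, a small photosystem II subunit, read 4.70, 4.29 and 4.32 against 3.65, 3.50 and 2.29. The 3 mutant arrays stood above every Ws array, and replicate 3 of Ws was the lowest by more than 1 unit. Its difference was 1.29 ± 0.20 (SE, n = 3 pairs; adjusted p 0.232) after nitrate and −0.27 in KCl. The KNO3 minus KCl difference of psbI was 1.56, at an unadjusted p of 0.000212 and an adjusted p of 0.473.

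ccsA, needed to attach haem to c-type cytochromes, read 7.87, 7.46 and 7.21 in afb3-1 and 7.02, 6.92 and 5.45 in Ws, without overlap. psaI and psaJ of photosystem I were at 1.48 and 1.11. psbK, psbM and psbA of photosystem II were at 1.05, 0.74 and 0.68, psbA encoding the D1 reaction centre protein. atpA, atpE and atpB of the ATP synthase were at 1.23, 0.91 and 0.87, and ndhD and ndhI of the NDH complex at 1.38 and 1.16. Outside these complexes matK, a group II intron maturase, was at 1.17 and rpoC1, an RNA polymerase subunit, at 0.72.

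The remaining plastid genes were more mixed. rbcL, the large subunit of Rubisco, read 4.68, 4.07 and 4.03 in afb3-1 and 4.09, 4.79 and 2.62 in Ws. Pair 2 ran opposite to pairs 1 and 3, and the difference of 0.42 ± 0.30 (SE, n = 3 pairs) had an unadjusted p of 0.186. Among ribosomal protein genes rpl32 and rpl20 were at 0.76 and 0.67. rpl22 was at −0.60 and rps3 at −0.25, and both were higher in afb3-1 in KCl, by 0.60 and 0.61. petL and petA of the cytochrome b6f complex were at 0.75 and 0.73.

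**Figure D2:**
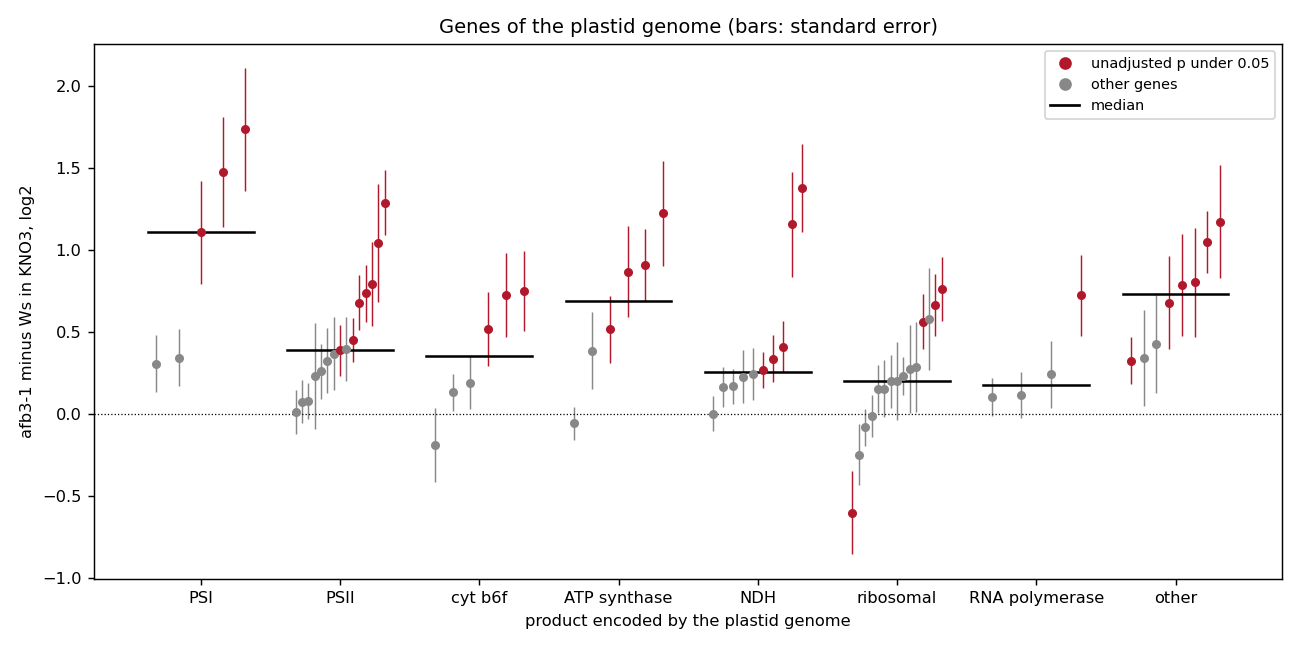
Difference between afb3-1 and Ws after nitrate (log2, vertical axis) for each of the 69 plastid genes, grouped by the product they encode; bars are standard errors, black lines medians, and red points have an unadjusted p under 0.05. Photosystem I has the highest median, 1.11, and the ribosomal group reaches from −0.60 to 0.76.

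The nuclear and plastid groups did not follow the same pairs. The median difference of the 13 nuclear genes was 1.48, 1.06 and 0.40 in pairs 1, 2 and 3, and that of the 69 plastid genes was 0.56, 0.01 and 0.68. Pair 2 therefore carried a nuclear difference with almost no plastid one, and pair 3 the smallest nuclear and the largest plastid difference. The median plastid level was 3.70, 4.68 and 2.72 on the Ws KNO3 arrays and 4.79, 4.20 and 4.35 on the afb3-1 arrays, with replicate 3 of Ws the lowest of all 12 arrays. Without pair 3 the plastid median was 0.24 and 16 genes were higher at an unadjusted p under 0.05. Without pair 1 they were 0.27 and 17, and without pair 2 they were 0.64 and 41. In a fit that ignores the pairs 11 plastid genes were higher at that level. Over the whole array 538 probe sets lay at it in either direction in that fit, against 1755 in the paired fit.

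**Figure D3:**
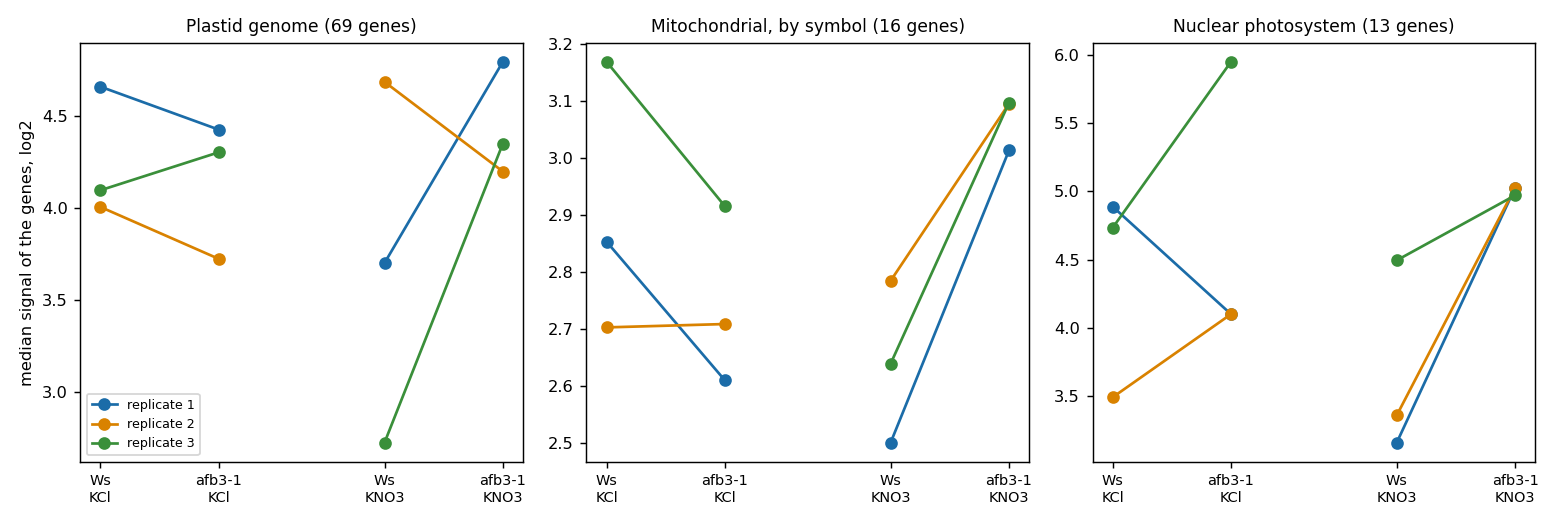
Median log2 signal (vertical axes, each with its own range) of the plastid genes, the mitochondrial genes and the nuclear photosystem genes on the 12 arrays; lines join arrays with the same replicate number. The Ws KNO3 arrays lie at 3.15, 3.36 and 4.49 for the nuclear genes, below their afb3-1 partners at 5.03, 5.03 and 4.97.

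Genes of the mitochondrial genome were also higher on the mutant arrays. They were recognised by symbol, since the gene table does not place them, and signal from the copy of mitochondrial DNA on chromosome 2 cannot be told apart from theirs. All 16 were higher by point estimate, against 52.8% of all probe sets, and their median was 0.34. At an unadjusted p under 0.05, 10 were higher, against 4.16%, or 3 in a fit that ignores the pairs. Leaving out pair 1 or pair 3 gave 6 and 5. cox1, a subunit of cytochrome c oxidase, read 5.70, 5.83 and 6.01 in afb3-1 and 5.09, 5.17 and 5.50 in Ws. The groups did not overlap, and the difference was 0.59 ± 0.13 (SE, n = 3 pairs; adjusted p 0.319).

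nad4, a subunit of respiratory complex I, was at 0.70 with no overlap between the groups. cox2, of the same enzyme as cox1, read 3.26, 4.02 and 3.43 in afb3-1 and 2.96, 3.04 and 3.11 in Ws, a difference of 0.53 that was largest in pair 2. ccb382, for cytochrome c maturation, was at 0.83 and orfX at 0.61. nad1 was at 0.32, and of its 7 probe sets 1 lay below 0, at −0.02. nad5 was at 0.30. Of 33 loci in a list of the chromosome 2 copy 26 were higher by point estimate (22 after quantile normalization, 21 without pair 1) and 3 at an unadjusted p under 0.05, against 4.16% of all probe sets, AT2G07719 among them at 0.52. Of the 33, 24 were among the dimmest probe sets.

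In KCl the organelle medians were smaller and mostly below 0. The mitochondrial median was −0.40, −0.03 and −0.09 in the 3 KCl pairs and 0.45, 0.21 and 0.34 in the KNO3 pairs. For the plastid genes it was −0.13, −0.10 and 0.13 in KCl. The nuclear photosystem median in KCl was −0.33, 0.35 and 1.06, so the pairs disagreed there. By point estimate 12 of these 13 genes were higher in afb3-1 in KCl too, with a median of 0.30. Over the whole array 10991 of 22746 probe sets were higher in KCl. The genotype difference in KNO3 minus that in KCl was tested in the same fit: 0 of 22746 probe sets passed in limma (0%), and 9.11% (2073) lay at an unadjusted p under 0.05. Of the 69 plastid genes 28 had a higher difference in KNO3 at that level (4.30% of all probe sets) and 3 a lower one (4.81%), and among the 16 mitochondrial genes 9 had a higher one. Among the 13 nuclear genes 2 had a higher one. The median of this difference between treatments was not smaller there, at 0.55 for the nuclear, 0.44 for the plastid and 0.47 for the mitochondrial genes.

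**Figure D4:**
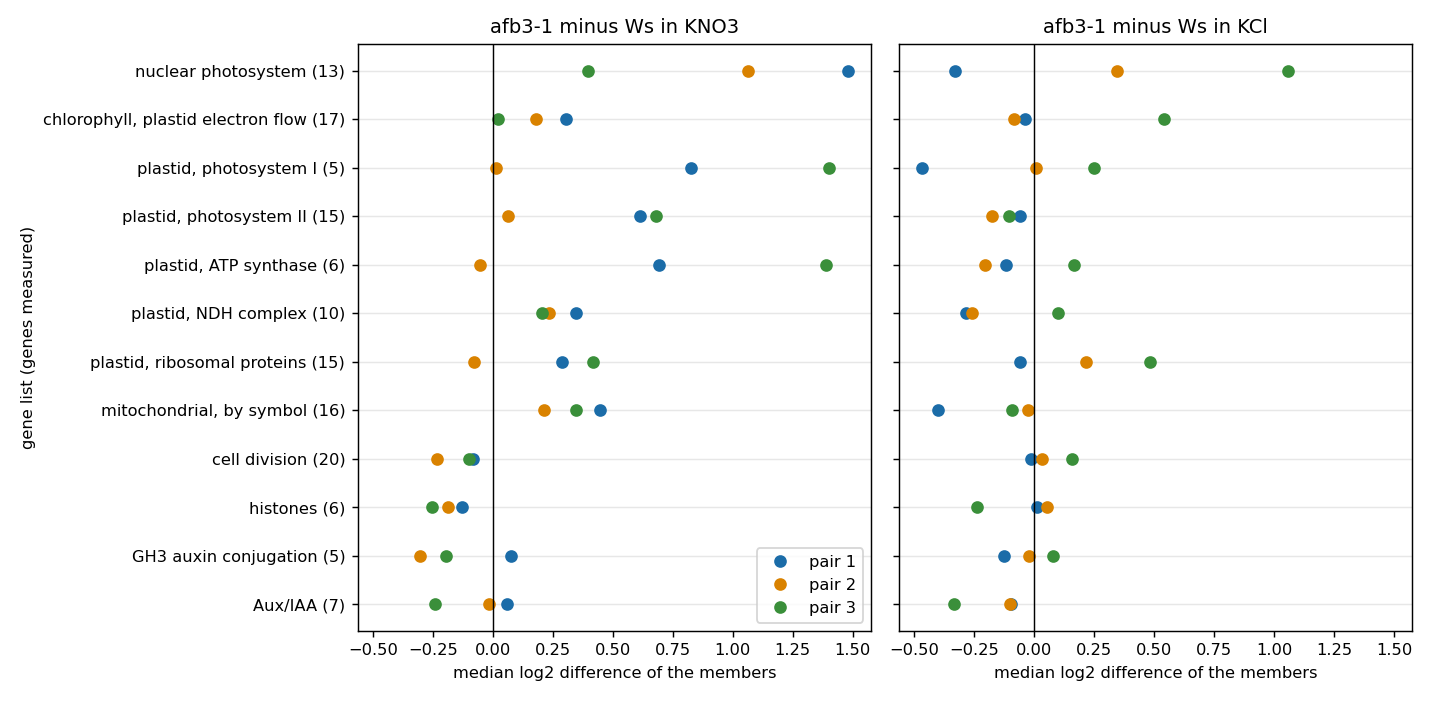
Median difference between afb3-1 and Ws (log2, horizontal axes) of 12 gene lists in each of the 3 pairs, after KNO3 (left) and in KCl (right). The mitochondrial medians are above 0 in every KNO3 pair and below 0 in every KCl pair.

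Genes of cell division lay on the lower side. Of 20 measured, 15 were lower in afb3-1 by point estimate, where 47.2% of all probe sets were, and their median was −0.14. At an unadjusted p under 0.05, 5 were lower, against 3.56%, and 0 higher. In a fit that ignores the pairs 1 was lower, and leaving out pair 1 or pair 2 gave 3 and 2. 3xHMG-box1, which binds condensed chromosomes in mitosis, read 1.30, 1.90 and 1.64 in afb3-1 and 2.02, 2.47 and 2.17 in Ws. The groups did not overlap, and the difference was −0.61 ± 0.12 (SE, n = 3 pairs; adjusted p 0.246), at a mean signal of 1.84, among the dimmest probe sets.

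Its relative 3xHMG-box2 was at −0.35. AUR3, an Aurora kinase that acts on histone H3, read 3.00, 2.76 and 2.91 against 3.28, 3.48 and 3.26, a difference of −0.45 without overlap. KINESIN-12B, a motor of the phragmoplast, was at −0.39 and BUB3.2 at −0.30. SP1L2 was at 0.29 with an unadjusted p of 0.0864.

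All 6 histone genes measured were lower by point estimate, against 47.2% of all probe sets, with a median of −0.18. Without pair 3, 2 of the 6 were higher. HTR12 is in both this list and that of cell division. HTB2, a histone H2B gene, had the smallest p, with 5.68, 5.51 and 5.52 in afb3-1 and 5.99, 6.11 and 5.88 in Ws. Every mutant array was below every Ws array, and the difference was −0.42 ± 0.11 (SE, n = 3 pairs; adjusted p 0.352). In KCl it was 0.13. HTB2 was the 1 histone gene with an unadjusted p under 0.05, against 7.72% of all probe sets, a share that leaves little to read from 6 genes.

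Of 12 auxin-response genes, from the Aux/IAA and GH3 families, 0 had an unadjusted p under 0.05 in limma, against 7.72% of all probe sets, a share that leaves little to read from so few genes. 1 Aux/IAA gene was lower at that level with array weights, with the variance trend or in a fit of the 6 arrays alone, and 1 GH3 gene without pair 1 or without pair 3. GH3 enzymes join auxin to amino acids. Of 5 measured, 4 were lower by point estimate, the lowest being GH3.1 at −0.25 (95% interval −0.54 to 0.04), followed by WES1 at −0.22 and GH3.17 at −0.17. GH3.1 read 2.09, 2.35 and 2.09 in afb3-1 and 2.17, 3.00 and 2.11 in Ws, so pair 2 gave most of it. The 7 Aux/IAA genes lay between −0.40 and 0.08, with IAA31 the lowest at an unadjusted p of 0.0594. They were IAA18, IAA20, IAA29, IAA30, IAA31, IAA33 and IAA34, so other members of the family are not covered. Among the dimmest probe sets were 5 of these 7 and 3 of the 5 GH3 genes.

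The factors of lateral root initiation were measured with 4 genes. LBD16 read 4.01, 5.21 and 4.51 in afb3-1 and 3.97, 4.70 and 4.46 in Ws, a difference of 0.20 (95% interval −0.08 to 0.47). LBD29 was at −0.24, PUCHI at −0.15 and CR4 at −0.06. Of the YUCCA genes, which make auxin, YUC6 was at 0.26 and YUC2 at −0.15, with unadjusted p of 0.115 and 0.175. The 95% intervals of LBD29 and YUC6 reached −0.53 and 0.59, so 3 pairs left differences of that size within them.

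The nitrate transporter gene NRT2.5 varied more between replicates than between genotypes. It read 6.89, 2.65 and 6.24 in afb3-1 and 6.77, 3.56 and 6.31 in Ws, with replicate 2 low in both. The difference was −0.29 ± 0.19 (SE, n = 3 pairs). AT3G21670, in the same list, was at 0.15.

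Cell wall genes ran in both directions. Among 29 expansins and xyloglucan enzymes 3 were higher and 3 lower at an unadjusted p under 0.05, against 4.16% and 3.56% of all probe sets, and 0 in either direction in a fit that ignores the pairs. EXPA8 was at 0.40 and XTH32 at 0.28, and XTH26, XTH19 and EXPB3 were at −1.04, −0.31 and −0.33. EXPA8 differed by −0.46 in KCl. Of 6 root hair markers 2 were measured, EXPA7 at 0.02 and EXPA18 at −0.39, and their summed log2 signal was 12.1, 9.45 and 9.67 in afb3-1 and 11.8, 9.31 and 11.2 in Ws. The marker sum was higher in afb3-1 in pairs 1 and 2 and lower in pair 3. XTH26 was lower in all 3 pairs, which the rule that named it required. Both differed most in pair 3. The part of root hair cells was not tested.

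Small heat shock genes read highest in replicate 2. AT1G53540 read 3.39, 8.21 and 3.99 in afb3-1 and 3.04, 5.00 and 2.70 in Ws, a difference of 1.62 ± 0.66 (SE, n = 3 pairs; adjusted p 0.597). ATHSP22.0, a small heat shock protein, read 4.02, 7.35 and 4.04 against 4.09, 4.26 and 3.15, a difference of 1.31 with an unadjusted p of 0.0519. In both genes replicate 2 was the highest array of each genotype. In a list of 16 heat shock and folding genes 10 were higher by point estimate, against 52.8% of all probe sets, and the median was 0.05. At an unadjusted p under 0.05, 4 were higher and 1 lower, against 4.16% and 3.56% of all probe sets. A fit that ignores the pairs gave 0 in either direction. Of its members AT5G48570 was at 1.05 after nitrate and 0.70 in KCl, and HSA32, Fes1A and Hsp70-2 were at 0.63, 0.41 and 0.38. Hop1, a co-chaperone, was at −0.27.

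Redox and conjugation genes lay on both sides of 0. GRX480, a glutaredoxin that interacts with TGA factors, was at 0.55 and ROXY2 at −0.44. GSTU20 and GSTU25, glutathione transferases, were at 0.50 and −0.58. Of 51 UDP-glycosyltransferase genes 6 were higher and 1 lower at an unadjusted p under 0.05, against 4.16% and 3.56% of all probe sets. In a fit that ignores the pairs 1 was higher, and without pair 2 there were 3. UGT84A1, UGT78D1 and UGT78D2, which glycosylate phenylpropanoids and flavonoids, were at 0.55, 0.39 and 0.29, and UGT73B4 was at −0.56.

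Single members of larger families were also among the named genes. AGL80, a MADS-box factor, read 3.79, 3.73 and 3.36 in afb3-1 and 3.22, 3.26 and 2.93 in Ws, while AGL16 was at −0.42. In that family 2 of 40 genes were higher and 1 lower at an unadjusted p under 0.05, close to the 4.16% and 3.56% of all probe sets. SCPL34, a serine carboxypeptidase-like gene, was at −0.68 and RALFL32, a peptide of the RALF family, at 0.39.

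The genotype difference after nitrate bore little likeness to that without it. In KCl 0 of 22746 probe sets passed in limma (0%), with 1614 at an unadjusted p under 0.05 (7.10%). Across all probe sets the differences in KNO3 and in KCl, which use separate arrays, had a Pearson r of −0.02. Genes share arrays, so this r is a description. Of the 1755 probe sets at an unadjusted p under 0.05 after nitrate, 781 (44.5%) had the same sign in KCl. In both treatments at that level were 77 with the same sign and 119 with opposite signs.

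The genes with the smallest p for the difference between treatments had opposite signs in the 2 salts, a pattern that this ranking itself favours. AT1G71740 was at 0.33 in KNO3 and −0.56 in KCl, AT5G57655 at −0.36 and 0.41, and AT2G39300 at −0.16 and 0.63. With psbI and AT1G23280 these were the 5 smallest, all at an adjusted p of 0.473.

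**Figure D5:**
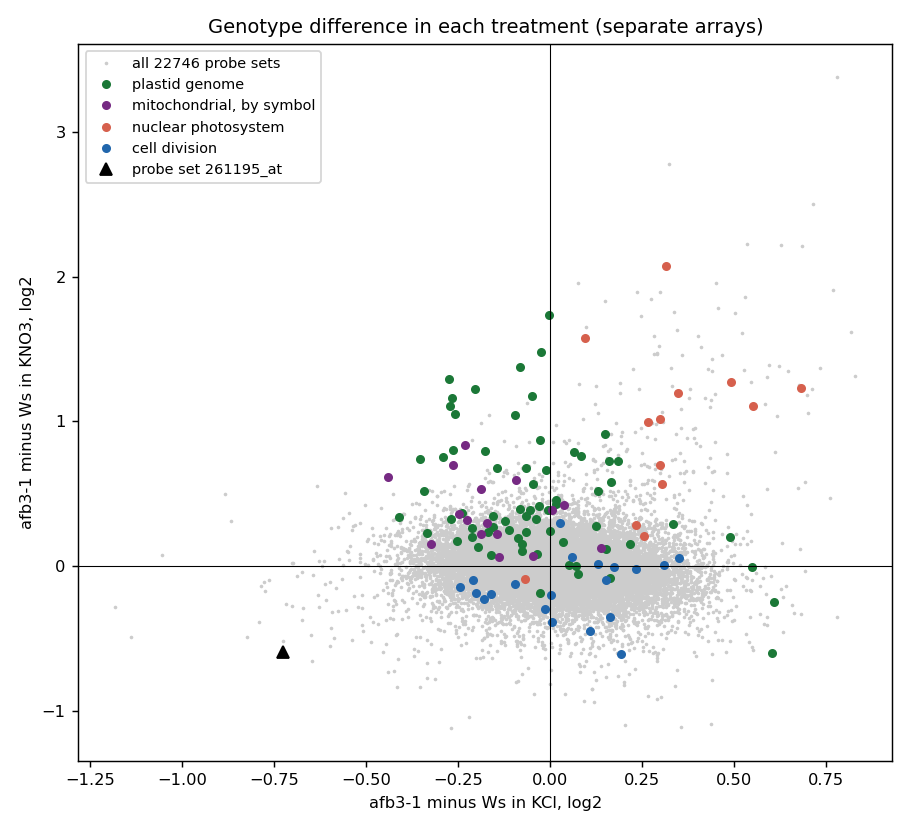
Difference between afb3-1 and Ws after KNO3 (vertical axis, log2) against that in KCl (horizontal axis, log2) for all 22746 probe sets, with 4 gene lists and 1 probe set marked. The plastid and mitochondrial genes lie mostly above 0 after KNO3 and around or below 0 in KCl, and probe set 261195_at lies below 0 in both.

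1 probe set, singled out after its values were seen, was lower in afb3-1 in all 6 pairs. Probe set 261195_at, which has no single gene in the annotation used, had the smallest p for the average over both treatments among such probe sets. It read 5.99, 5.74 and 6.13 in afb3-1 and 6.75, 6.33 and 6.57 in Ws after nitrate, and 5.32, 5.08 and 5.26 against 6.01, 5.88 and 5.95 in KCl. The groups did not overlap in either treatment. The difference was −0.60 ± 0.11 in KNO3 and −0.73 ± 0.11 in KCl (SE, n = 3 pairs each). Averaged over both treatments, a contrast added after the values were seen, it was −0.66 with an adjusted p of 0.0952, where limma called 0 of 22746 probe sets (0%), while 5.92% (1347) lay at an unadjusted p under 0.05. Over the whole array 335 probe sets (1.47%) were lower in all 6 pairs.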

How the data were processed

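Root RNA of 12 samples, 3 per genotype and treatment, was turned into biotinylated cRNA with an Affymetrix 3′ IVT kit, per the labels' protocols. The values used are the log2 signals of the table the authors deposited. Background correction, normalization and probe summarization are not stated in the labels or headers used here. Sorted arrays differed from their mean by at most 0.176, so nothing further was normalized, and a shift shared by most genes would not show. Precision is limited by the number of arrays.

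The 64 control probe sets were left out. Of 22746 tested, 13513 have 1 gene in the platform annotation, 503 several and 8730 none, and 13436 matched the gene table. The probe set with the highest mean stood for a gene with several (152 of 13350).

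With limma 3.58.1 in R 4.3.3, 1 effect per pair and 1 genotype effect per treatment were fitted to all 12 arrays. Variances were moderated by empirical Bayes, with 4 residual and 6.18 prior degrees of freedom. Tests were two-sided, with Benjamini-Hochberg adjustment and a threshold of 0.05. The fit was tested on simulated data. The labels do not say that replicate numbers mark a shared batch. Pairing was taken from the data: deviations of same-numbered arrays from their group means correlated by 0.593, 0.607 and 0.409 in KNO3 and 0.301, 0.661 and 0.605 in KCl. Nothing beyond the labels shows that replicates are separate cultures, so p-values measure only the spread within pairs of these samples, pooled over both treatments.

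Genes were named by rule: the 10 smallest p in each direction, the 6 largest differences in each direction among brighter genes, list members, loci of the study's subject and the 5 smallest p for the difference between treatments. Members and lists were chosen with earlier results of these data known, and 31 lists and the examples named from them after values were seen. Alternatives covered pairing, normalization, dim probe sets, variance model, array weights, thresholds and leaving out each pair.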

Additional observations from a re-analysis of the deposited data

Results flagged for a closer look

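For 2 gene lists the pair medians had opposite signs in the treatments. The 15 plastid photosystem II genes had a median above 0 in each KNO3 pair (mean 0.45) and below 0 in each KCl pair (mean −0.11), a gap of 0.56 on the log2 scale. For the 16 mitochondrial genes the means were 0.33 and −0.17, a gap of 0.51. These gaps between medians were not tested, and both lists were drawn up after values had been seen. On the same arrays the 25S rRNA control differed by −0.55, 0.42 and 0.50 in the KNO3 pairs and by −0.67, −0.27 and 0.45 in the KCl pairs, and its part was not tested.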

How the results depend on the processing

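The count of probe sets called in KNO3 was 0 in all but 2 of the alternatives run. It was 1 with a mean-variance trend and robust moderation (AT2G35820, adjusted p 0.0329), and leaving out 1 pair gave 0 to 10. The 10 came without KNO3 pair 3, all higher in afb3-1. They were AT2G35820 at 1.46, SWEET11 at 1.61 and 8 probe sets without a single gene. Without the replicate block 0 were called in KNO3, with a smallest adjusted p of 1.0 and 538 at an unadjusted p under 0.05, so the paired fit matters for the ranking by p. With a random block 0 were called as well, with 1389 at that level. Array weights and the fit of the 6 KNO3 arrays alone also called 0, with 2353 and 2147 at that level. For KCl and for the difference between treatments 0 were called under every alternative run, and a fit of the 6 arrays alone gives no value for the latter. The average over both treatments gave 1 call with a random block or array weights and 2 with the variance trend or without KNO3 pair 3. Of 1895 values for 127 named genes and probe sets 1879 kept direction and side, and 13 changed sign, in 11 genes; over all 658 genes open to naming, 262 changed sign under at least 1 alternative. Leaving out 1 pair moved rbcL between −0.064 and 1.00, NRT2.5 between −0.49 and 0.027, GH3.17 between −0.29 and 0.0058, ATPC2 between −0.28 and 0.091, CR4 between −0.15 and 0.069 and EXPA7 between −0.12 and 0.28. EXPA7 was −0.092 with array weights. The nitrate loci moved between −0.16 and 0.023 (AT1G25550), −0.0046 and 0.24 (AT5G10210), −0.021 and 0.12 (AT3G25790), −0.042 and 0.084 (AT5G41670) and −0.035 and 0.040 (AT1G64190). The cause of these changes was not tested. With 3 pairs the 95% interval of a difference, before any adjustment, reached a median of 0.269 to either side.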
